A study of Drosophila melanogaster with 33 samples.

Results

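Described here are the digestive lipase genes mag, CG6271, CG6277, CG6283, CG6295 and CG6296 and the phospholipid synthesis gene Agpat2 in the Drosophila melanogaster midgut around puparium formation. Members were taken as every probe whose symbol in the array platform's annotation is one of these 7 names. That gave 8 probes of 7 genes, since CG6283 has 2, among 9905 named genes and 14064 probes that hold any value. mag has the identifier CG5932 and Agpat2 CG17608. The midguts came from the wild-type strain Canton S, with no genetic change or drug treatment named. There were 11 stages with 3 arrays each: 18 h BPF and 4 h BPF, where BPF stands for before puparium formation, then 0 h, which is puparium formation itself, and 2, 3, 4, 5, 6, 8, 10 and 12 h APF, that is, after it. On each array Cy5-labelled, amplified midgut RNA of a stage was set against a Cy3-labelled midgut mixture that held every stage except 10 h. The arrays of a stage carry the letters a, b and c in the labels and are given below in that order. The labels call the samples of a stage independent without naming the animals, so p-values measure the spread between these samples only.

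The larval midgut digests the fat of the food with lipases that its enterocytes, the absorptive cells of the epithelium, secrete into the lumen. Magro, the product of mag, is a secreted lipase of the acid lipase family that acts on dietary triacylglycerol and on cholesterol esters. CG6271, CG6277, CG6283, CG6295 and CG6296 encode relatives of the mammalian pancreatic lipases. Agpat2 belongs to a family of acyltransferases that add a fatty acid to lysophosphatidic acid, giving phosphatidic acid, from which cells make both phospholipids and triacylglycerol. Around puparium formation the larva stops feeding, and the larval epithelium is later replaced by an adult one.

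All values below are log2 ratios of a stage over the mixture, so a difference of 1 between stages is a doubling. They describe a probe against itself across stages, and they do not rank genes by abundance. The base and the direction of the ratio were inferred. On each array the small ratios were whole multiples of a fixed step, to within 0.05 of a step, when the values were read as log2 of stage over mixture. A fit of all probes with limma, adjusted over every probe tested, gives the p-values, and a change counts as called at an adjusted p below 0.05. In a bulk sample, fewer cells of a type cannot be told apart from less RNA per cell.

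Across the 11 stages all 8 member probes passed limma's moderated F test, with adjusted p-values between 2.50e-16 and 3.27e-06, against 57.1% of the 7257 probes tested. The lipases were high before puparium formation and low after it, whereas Agpat2 was low at 18 h BPF, highest at 0 h and lowest at 10 h APF. Ranges between the highest and the lowest stage mean ran from 24.2-fold for the second CG6283 probe to 214-fold for CG6296, and the range of Agpat2 was 43.2-fold. mag, CG6296 and CG6295 had their highest mean at 18 h BPF, and both CG6283 probes, CG6277 and CG6271 had theirs at 4 h BPF. Arrays of 18 h and 4 h BPF overlapped for CG6295, CG6283, CG6277 and CG6271. They were separate for mag, with 2 arrays at 18 h BPF, and for CG6296. The step between these stages passed limma's test for neither gene (lowest adjusted p = 0.0509), so which stage was higher was not settled.

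**Figure D1:**
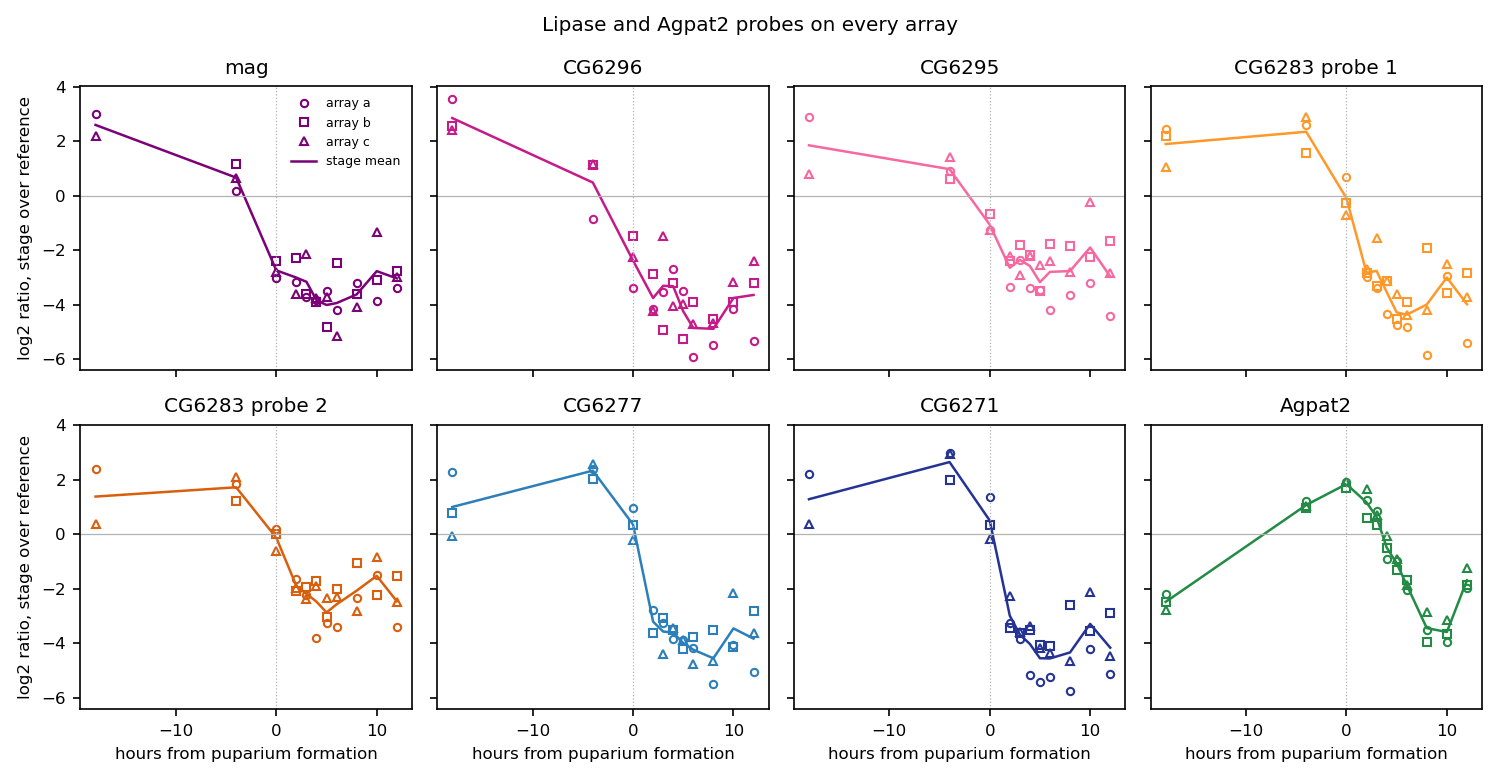
Each panel plots a probe's log2 ratio of stage over mixture against hours from puparium formation, with a symbol per array and a line through the stage means. The 7 lipase probes are highest at 18 or 4 h BPF and stay below 0 on every array from 2 h APF, whereas Agpat2 peaks at 0 h.

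mag gave 3.00 and 2.20 on the 2 arrays that measured it at 18 h BPF. It gave 0.19, 1.16 and 0.65 at 4 h BPF and -3.02, -2.42 and -2.79 at 0 h. These 3 stages did not overlap, and each was lower than the one before it. From 2 to 12 h APF its stage means lay between -4.01 ± 0.71 (SD, n = 3, at 5 h) and -2.77 ± 1.29 (SD, n = 3, at 10 h). Neighbours in the order of its stages overlapped everywhere below 4 h BPF, so the order of the stages from 0 to 12 h was not resolved. Over the late larval interval, 0 h minus 18 h BPF, mag fell by 5.34 ± 0.61 (SE), a 40.5-fold change with an adjusted p of 2.19e-07. The step from 4 h BPF to 0 h had a change of -3.41 ± 0.55 (adjusted p = 2.94e-04), and the step before it had a change of -1.93 ± 0.61 that did not pass (adjusted p = 0.0589). From 0 h to 6 h APF the change of mag was -1.20 ± 0.55 (adjusted p = 0.116), and the arrays of these stages overlapped.

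CG6296 had the widest range of the members, and its stage means correlated with those of mag at r = 0.973 over the 11 stages. Its arrays read 3.55, 2.57 and 2.43 at 18 h BPF, -0.85, 1.12 and 1.18 at 4 h BPF, and -3.39, -1.48 and -2.27 at 0 h. Array a of 4 h BPF lay well under the other two of that stage. The late larval change was -5.23 ± 0.73 (adjusted p = 4.17e-06), and the 0 h arrays all lay below those of 18 h BPF. The step from 4 h BPF to 0 h was called at -2.86 ± 0.73 (adjusted p = 0.0241), but not without 4 h BPF array b or c or 0 h array a (adjusted p = 0.0939, 0.0825 and 0.109), nor without moderation of the variances (0.0818). At 6 h APF CG6296 stood at -5.94, -3.92 and -4.71. The change from 0 h was -2.48 ± 0.73 (adjusted p = 0.0125), a call that was lost without 0 h array b (-2.03, adjusted p = 0.0726) or 6 h array a (-1.93, adjusted p = 0.0809), and under quantile normalization (-1.40, adjusted p = 0.0924). Its lowest stage mean was -4.89 ± 0.52 (SD, n = 3) at 8 h APF.

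CG6295 also had its highest mean at 18 h BPF, with wide scatter. It read 2.89 and 0.81 on the 2 arrays that measured it at 18 h BPF, 0.89, 0.61 and 1.42 at 4 h BPF, and -1.25, -0.67 and -1.26 at 0 h. The first 2 of these stages overlapped, and 0 h lay below both. Its late larval change was -2.91 ± 0.76 (adjusted p = 0.0065). The change from 0 h to 6 h APF was -1.74 ± 0.68 and did not pass (adjusted p = 0.0636), although the 6 h values of -4.22, -1.79 and -2.39 all lay below the 0 h values. Its widest SD was at 10 h APF, where the mean was -1.90 ± 1.53 (SD, n = 3) and array c read -0.22.

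CG6271 and CG6277 were still close to or above the mixture at puparium formation and fell in the next 2 h. CG6271 read 2.20 and 0.38 on 2 arrays at 18 h BPF, 2.99, 2.01 and 2.96 at 4 h BPF, and 1.36, 0.35 and -0.18 at 0 h. At 2 h APF it read -3.27, -3.45 and -2.25, far below every earlier array. The step from 0 h to 2 h APF was -3.50 ± 0.67, an 11.3-fold drop (adjusted p = 0.00118). By 6 h APF the arrays read -5.25, -4.08 and -4.34, which gave an early prepupal change, 6 h APF minus 0 h, of -5.07 ± 0.67 (adjusted p = 1.16e-06). The late larval change of CG6271 was -0.78 ± 0.75 (adjusted p = 0.579), with overlapping arrays.

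The same course held for CG6277, whose arrays read 2.28, 0.79 and -0.06 at 18 h BPF, 2.42, 2.02 and 2.59 at 4 h BPF, 0.96, 0.35 and -0.21 at 0 h, and -2.77 and -3.64 on the 2 arrays that measured it at 2 h APF. The 0 h arrays lay below those of 4 h BPF, and the 2 h arrays lay far below those of 0 h. Its step from 0 h to 2 h APF was -3.57 ± 0.63, an 11.9-fold drop (adjusted p = 5.23e-04). The early prepupal change was -4.60 ± 0.57 (adjusted p = 3.57e-07) and the late larval change -0.64 ± 0.57 (adjusted p = 0.534). Stage means of CG6277 and CG6271 correlated at r = 0.995 over the 11 stages, the closest pair among the members. The probes may in part bind the same transcripts, since the genes are neighbouring copies of a family, and this was not tested.

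CG6283 fell in both intervals by its first probe. That probe read 2.43, 2.19 and 1.07 at 18 h BPF, 2.59, 1.56 and 2.89 at 4 h BPF, and 0.68, -0.26 and -0.69 at 0 h. At 2 h APF it read -2.97, -2.83 and -2.68, and at 6 h APF -4.83, -3.92 and -4.37. Each of the stages 0, 2 and 6 h lay wholly below the one before it. The early prepupal change was -4.28 ± 0.67 (adjusted p = 1.34e-05). The late larval change was -1.99 ± 0.67 (adjusted p = 0.0382), and it was lost without 18 h BPF array a (-1.72, adjusted p = 0.136) or b (-1.84, adjusted p = 0.107), or without 0 h array b (-1.90, adjusted p = 0.0843) or c (-1.68, adjusted p = 0.115). It was also lost with trend and robust variances (adjusted p = 0.0558) and without moderation (0.0827). The step from 0 h to 2 h APF was -2.74 ± 0.67 (adjusted p = 0.0105), and not called without 0 h array a (-2.35, adjusted p = 0.0801). The step from 4 h BPF to 0 h, at -2.44 ± 0.67, was called with an adjusted p of 0.039 and lost the call without array a or c of 4 h BPF or b or c of 0 h, with adjusted p-values between 0.111 and 0.141. With no filter on missing values, with trend and robust variances and without moderation it was 0.0512, 0.0628 and 0.114.

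The second CG6283 probe had the same 3 highest stages in the same order (4 h BPF, 18 h BPF, 0 h) and another order below them, with a smaller range, 4.60 against 6.72 on the log2 scale. The first probe minus the second was -1.93 at 8 h APF, against 0.62 at 4 h BPF, and the first was the lower on 25 of 32 arrays. The second probe's early prepupal change was -2.45 ± 0.54 (adjusted p = 9.85e-04), and its late larval change of -1.51 ± 0.60 did not pass (adjusted p = 0.087). Its step from 0 h to 2 h APF, at -1.77 ± 0.54, was called at an adjusted p of 0.045. That call was lost without any single array of 2 h APF or without 0 h array a or b, and also without single arrays of 3 h (each), 5 h (b), 8 h (a) or 12 h (c), with adjusted p-values up to 0.168. It was lost as well with no filter on missing values, with trend and robust variances, without moderation and without all arrays of letter a (0.0518 to 0.103). Sizes of change for CG6283 therefore depend on the probe, while the direction does not in the late larval and early prepupal intervals.

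Agpat2 moved on a different schedule and with less scatter: its SD within a stage had a median of 0.30, against 0.57 to 0.92 for the lipase probes. Its arrays read -2.18, -2.47 and -2.79 at 18 h BPF, 1.23, 0.97 and 1.04 at 4 h BPF, and 1.92, 1.70 and 1.92 at 0 h. These 3 stages did not overlap. The step from 18 h to 4 h BPF was 3.56 ± 0.27, an 11.8-fold rise (adjusted p = 1.60e-09), and the late larval change was 4.33 ± 0.27, or 20.1-fold (adjusted p = 3.15e-12). The remaining step to 0 h was 0.77 ± 0.27 and did not pass (adjusted p = 0.16).

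After puparium formation Agpat2 declined over 8 to 10 h. Its stage means were 1.18 ± 0.54, 0.64 ± 0.26, -0.48 ± 0.43, -1.06 ± 0.23, -1.85 ± 0.17, -3.44 ± 0.55 and -3.59 ± 0.41 at 2, 3, 4, 5, 6, 8 and 10 h APF (SD, n = 3 each). In the order of its 11 stage means, 5 of the 10 neighbouring pairs had arrays that did not overlap, against 1 or 2 for each lipase probe. The early prepupal change was -3.70 ± 0.27, or 13-fold (adjusted p = 6.67e-11). Of the single steps in this decline, the one from 6 to 8 h APF was called, at -1.59 ± 0.27 (adjusted p = 6.85e-04), against 3.35% of all probes called in that step and 1.13% lower. At 12 h APF the arrays read -1.96, -1.86 and -1.24, all above the -3.94, -3.67 and -3.14 of 10 h. That rise of 1.90 ± 0.27 had an adjusted p of 5.66e-05, in a step where 2.35% of probes were called, 0.993% higher, and where no lipase probe was. From 8 to 10 h APF limma called 0 of 8 member probes, 0 also at an unadjusted p below 0.05, against 1.46% of all probes.

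**Figure D2:**
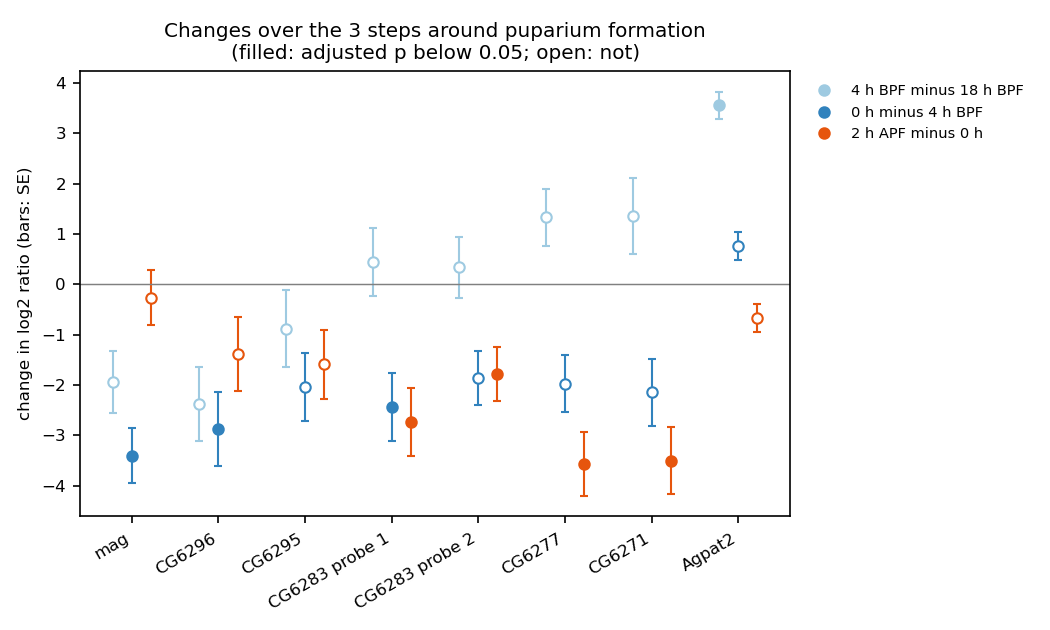
The plot gives the change in log2 ratio of each member probe over the 3 steps around puparium formation, with SE bars, and filled points are called at an adjusted p below 0.05. mag and CG6296 have their most negative changes before 0 h, CG6277 and CG6271 have theirs between 0 h and 2 h APF, and Agpat2 rises between 18 h and 4 h BPF.

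Counted over the members, 5 of 8 probes were called in the late larval interval, 1 higher and 4 lower, where 17.4% of all probes tested were called, 10.1% higher and 7.34% lower. Between 0 h and 6 h APF 6 of 8 were called, all lower, against 24.7% of all probes, 11.4% lower. Between 6 and 12 h APF limma called 0 of 8, against 21.7% of all probes, and 0 of 8 also had an unadjusted p below 0.05. Over the whole interval, 12 h APF minus 18 h BPF, all 8 were called, 1 higher and 7 lower, against 17.5% of all probes, 9.3% higher and 8.18% lower. The 7 lipase probes were lower at 12 h APF, with changes from -6.50 (CG6296) to -3.85 (second CG6283 probe), and their adjusted p-values did not exceed 2.13e-05. Agpat2 was higher at 12 h APF by 0.79 ± 0.27 (adjusted p = 0.042), a call that was lost without 18 h BPF array b (0.80, adjusted p = 0.0742) or c (0.64, adjusted p = 0.148) or 12 h array c (0.57, adjusted p = 0.196), with trend and robust variances (adjusted p = 0.152) and without moderation (adjusted p = 0.064). The median change over all probes tested was 0.06 in the late larval and 0.01 in the early prepupal interval, and -1.99 and -2.48 over the 7 lipase probes.

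The steps around puparium formation were taken singly. From 18 h to 4 h BPF 1 of 8 member probes was called, Agpat2, against 6.17% of all probes, 3.36% higher. CG6277 and CG6271 had changes of 1.34 ± 0.57 and 1.36 ± 0.75 in this step that did not pass (adjusted p = 0.206 and 0.395), and CG6296 had -2.37 ± 0.73 (adjusted p = 0.0509). From 4 h BPF to 0 h 3 of 8 were called, mag, CG6296 and the first CG6283 probe, against 3.1% of all probes, 1.49% lower. The changes of the 7 lipase probes in that step lay between -3.41 and -1.85. From 0 h to 2 h APF 4 of 8 were called, CG6277, CG6271 and both CG6283 probes, against 6.27% of all probes, 2.65% lower. In the steps from 2 to 3, 3 to 4, 4 to 5 and 5 to 6 h APF limma called no member and no probe at all. Unadjusted p-values below 0.05 came from Agpat2 alone among the members there, in each of the last 3 of these steps.

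Subtracting the Agpat2 value of the same array tested whether each lipase changed unlike Agpat2, which stands here for itself and not for phospholipid synthesis as a whole. In the step from 4 h BPF to 0 h all 7 lipase probes fell relative to Agpat2, by 2.62 to 4.17, with adjusted p-values from 2.42e-07 to 6.95e-04. Of all probes 5.47% differed from Agpat2 in that step, 5.39% lower. The subtracted probe puts the same noise into every row, which makes the moderated p-values too small. Without moderation of the variances the adjusted p-values of these 7 were at most 0.0282. In the late larval interval all 7 also differed, by -9.67 (mag) to -4.97 (CG6277), but so did 99.9% of all probes, since Agpat2 itself changed by 4.33. The same held from 18 h to 4 h BPF, where all 7 differed, by -5.93 (CG6296) to -2.20 (CG6271), and so did 100% of all probes after rounding, 12173 of 12179.

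From 2 to 6 h APF the lipases stayed low while Agpat2 went on falling. Agpat2 read -2.03, -1.69 and -1.85 at 6 h APF, against 1.26, 0.60 and 1.66 at 2 h, a change of -3.03 ± 0.27 (adjusted p = 3.04e-08). No lipase probe passed in this interval, where 12.3% of all probes were called, 7.33% lower, and their changes ran from -1.57 to -0.15. The difference from Agpat2 was called for all 7 (1.46 to 2.88), as it was for 99.2% of all probes, 99.1% higher. Without moderation, CG6271 (adjusted p = 0.0631) and the first CG6283 probe (adjusted p = 0.0685) were not called. The first of these also lost its call without 2 h array a or 6 h array b, and the second without 2 h array c or 6 h array b (adjusted p from 0.0502 to 0.0534).

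Over the early prepupal interval the difference from Agpat2 was called for 4 of 7, against 98.7% of all probes, 98.3% higher and 0.373% lower. CG6277 minus Agpat2 was -0.90 ± 0.50 (adjusted p = 0.079), and the first CG6283 probe minus Agpat2 was -0.58 ± 0.59 (adjusted p = 0.334). mag minus Agpat2 was 2.50 ± 0.52 (adjusted p = 1.50e-05), and CG6295 minus Agpat2 was 1.97 ± 0.56 (adjusted p = 0.00108). These differences of mag and CG6295 were called without moderation too. The second CG6283 probe, at 1.26, lost its call without moderation (adjusted p = 0.0528) and without 0 h array c or 6 h array b or c (up to 0.0823). CG6271, at -1.36, lost its call without moderation (adjusted p = 0.0817), with trend and robust variances (0.0693) and without array a of 0 h (0.126) or of 6 h (0.0922). Its value was -0.75 under quantile normalization (adjusted p = 0.231) and -0.72 without all arrays of letter a (adjusted p = 0.247).

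**Figure D3:**
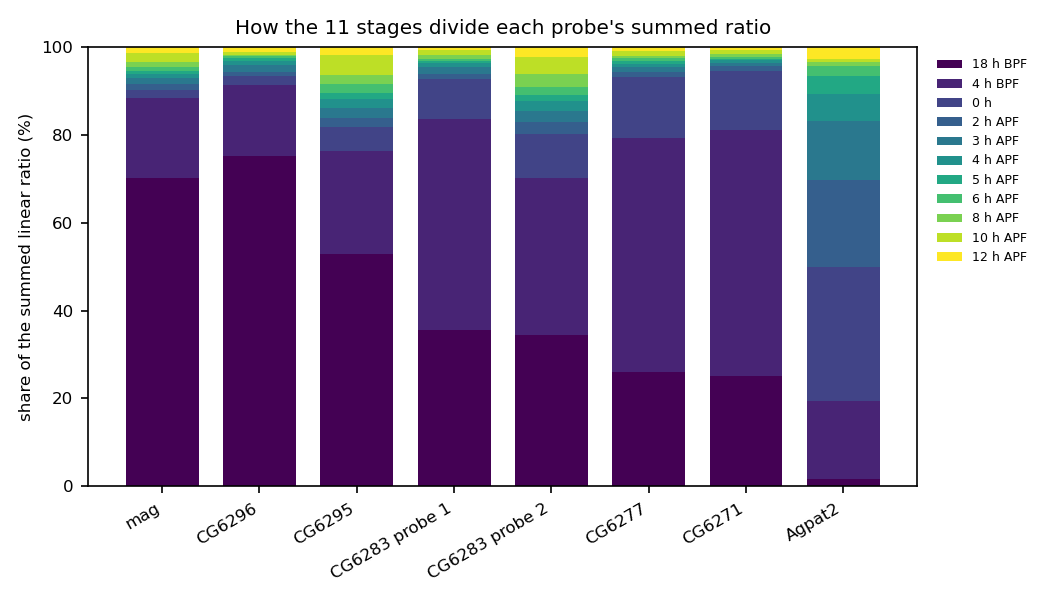
Each bar divides the sum of a probe's linear stage ratios over the 11 stages, in percent, with stages stacked from 18 h BPF at the bottom to 12 h APF at the top. The share of 18 h BPF is 70.1% for mag and 75.1% for CG6296, that of 4 h BPF is 56.1% for CG6271 and 53.1% for CG6277, and Agpat2 has its largest share, 30.4%, at 0 h.

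On a linear scale the concentration in a few stages was plain. The 18 h and 4 h BPF stages together held 88.4% of the summed ratio of mag, 91.3% of that of CG6296 and 81.2% of that of CG6271, against 19.4% for Agpat2. Stages from 2 h APF on held 50.1% of the Agpat2 sum, and between 5.46% (CG6271) and 19.8% (second CG6283 probe) of the lipase sums. These shares weight the stages equally and say nothing about how much transcript of one gene there was against another.

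The difference between mag and the other lipases was itself tested by subtracting the mag value of the same array. In the late larval interval 5 of the 6 probes of the CG-numbered lipases fell less than mag. The differences ran from 2.43 ± 0.75 (CG6295, adjusted p = 0.00129) to 4.59 ± 0.75 (CG6277, adjusted p = 1.30e-09), and 99.4% of all probes differed. CG6296 minus mag was -0.03 ± 0.75, with an adjusted p of 0.967. From 0 h to 6 h APF CG6271 minus mag was -3.87 ± 0.67 (adjusted p = 8.07e-07), CG6277 minus mag was -3.40 ± 0.67 (adjusted p = 2.39e-05) and the first CG6283 probe minus mag was -3.08 ± 0.67 (adjusted p = 1.79e-04). Those 3 of 6 were lower than mag, against 1.38% of all probes, and 18.1% of all probes differed in either direction. These 3 were called without moderation too, with adjusted p-values up to 0.0274. That of the first CG6283 probe was lost without all arrays of letter a (-2.45, adjusted p = 0.0704).

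Between 18 h and 4 h BPF CG6271 (3.30), CG6277 (3.16) and both CG6283 probes (2.53 and 2.27) rose relative to mag, 4 of 6 probes, against 70% of all probes. The 2 CG6283 calls were lost without 4 h BPF array a (adjusted p = 0.0725 and 0.0745). From 4 h BPF to 0 h 3 of 6 were called, against 99.1% of all probes, and 0 without moderation. CG6277 minus mag, at 1.43, and the second CG6283 probe minus mag, at 1.55, lost their calls without 4 h BPF array b or 0 h array a (adjusted p from 0.1 to 0.193). CG6295 minus mag, at 1.37, lost its call without any single array of 0 h, or without 4 h BPF array b or 12 h array c (up to 0.225). From 0 h to 2 h APF CG6277 minus mag was -3.60 and CG6271 minus mag was -3.23 (adjusted p = 0.00219 for both), in a step where 0.32% of all probes differed from mag, 0.124% lower. Without moderation these adjusted p-values were 0.316 and 0.48, and both calls were lost without 0 h array a (0.112 and 0.22), that of CG6271 also without 2 h array b (0.11).

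The 5 lipase genes other than mag are neighbours on chromosome arm 3R, while mag lies on 3L and Agpat2 on 2L. In RefSeq's gene order the cluster runs CG6296, CG6295, CG17192, CG17191, CG6283, CG6277, CG6271, and the array holds probes for CG17192 and CG17191 too, both of the same lipase family. CG6296 and CG6295, at one end, had their highest mean at 18 h BPF, and CG6283, CG6277 and CG6271, at the other, at 4 h BPF. The step between these stages was called for none of them, so which stage was higher was not settled. Between them, CG17191 was highest at 18 h BPF (25 arrays), and CG17192 at 4 h BPF by the probe with 29 arrays and at 18 h BPF by the probe with 19. The late larval change was -5.23, -2.91, -1.99, -0.64 and -0.78 in that order of the members, with the first probe for CG6283. The early prepupal change was -2.48, -1.74, -4.28, -4.60 and -5.07. By the second CG6283 probe the late larval change was -1.51 (adjusted p = 0.087 by limma). Its early prepupal change was -2.45, close to that of CG6296 at the other end. CG17192 and CG17191, in the middle, had late larval changes of -0.85 and -1.36 (adjusted p = 0.457 and 0.365) and early prepupal changes of -1.55 and -1.08 (adjusted p = 0.0886 and 0.487).

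Genes beside the cluster differed among themselves. TwdlT, next to CG6271 and named as a cuticle protein gene of the Tweedle family, was highest at 8 h APF, with a late larval change of -0.47 (adjusted p = 0.646). Nep5, a gene of the neprilysin family of peptidases that follows TwdlT, was highest at 18 h BPF by the 15 arrays that measured it, too few to be tested in either interval. spz, the gene of the Toll ligand Spätzle, was highest at 6 h APF and rose by 1.05 from 0 h to 6 h APF (adjusted p = 5.56e-04). TwdlC, on the other side, was highest at 8 h APF by the 23 arrays that measured it.

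**Figure D4:**
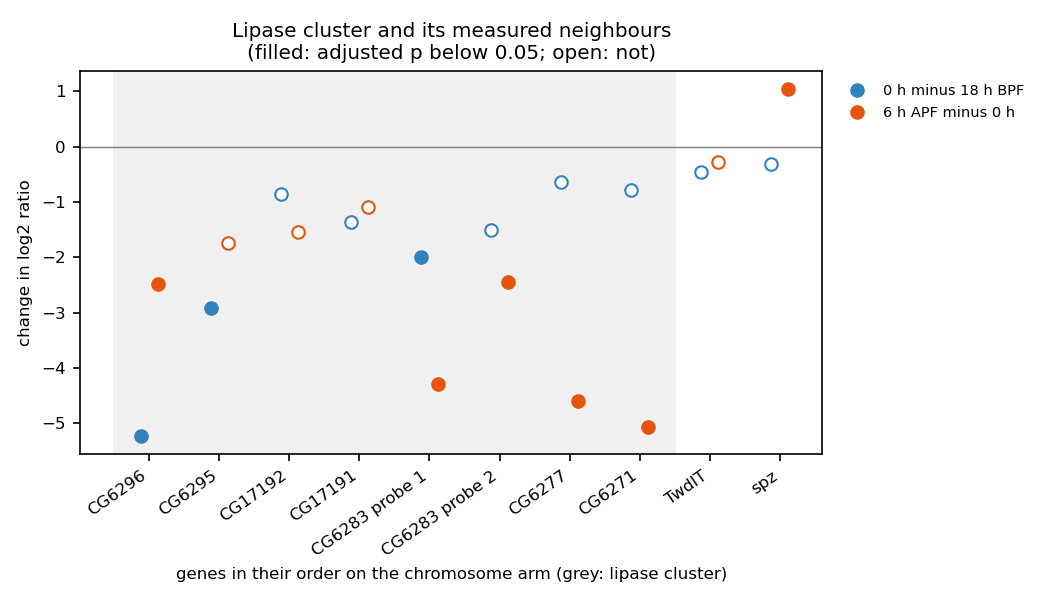
Genes of the lipase cluster (grey) and 2 measured neighbours stand in their order on the chromosome arm, with the change in log2 ratio on the vertical axis for 0 h minus 18 h BPF and 6 h APF minus 0 h. The late larval change is -5.23 at CG6296, at the left end of the cluster, and -0.78 at CG6271, at the right end, where the early prepupal change is -5.07.

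Within a stage, some of the lipase probes moved together from array to array. Deviations of an array from its stage mean correlated between pairs of lipase probes with a median r of 0.609 (0.101 to 0.836, 21 pairs, 31 to 33 arrays each). Between a lipase and Agpat2 the median r was 0.231 (0.141 to 0.34, 7 pairs). Pairs among CG6295, CG6283, CG6277 and CG6271 had r of 0.617 to 0.836. mag and CG6296 correlated with these at only 0.101 to 0.412, and with each other at 0.609. Points of a pair share an array, and hence its labelling and hybridization. All 7 lipases lay above their stage mean on 18 h BPF array a, 5 h array c, 6 h array b, 8 h array b, 10 h array c and 12 h array b. They all lay below it on 18 h BPF array c, 10 h array b and 12 h array a. At 18 h BPF mag, CG6295, CG6271 and the second CG6283 probe had only arrays a and c. For these probes, lying above the mean on array a fixes lying below it on array c. The spread was widest on the late arrays: the mean deviation of the lipases was 1.05 on 10 h array c and -1.14 on 12 h array a.

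Most enterocyte markers, chiefly other digestive enzymes such as the trypsins, fell as the lipases did. GATAe (-0.17 and 0.22) and nub (-0.40 and 0.46) were called in neither the late larval nor the early prepupal interval. Over the whole interval nub was higher by 0.82 (adjusted p = 0.033 by limma). Vha100-4 fell by 4.32 in the late larval interval, and its early prepupal change of 1.08 was not called. Of the 13 markers tested, 8 were lower at 0 h than at 18 h BPF, against 7.34% of all probes. At 6 h APF 9 were lower than at 0 h, against 11.4% of all probes, and 0 were higher in either interval. Their median log2 ratio was lowest at 6 h APF, at -4.60, and highest at 18 h BPF, at 2.53. alphaTry, a trypsin gene, had the widest range, with -5.28 at 5 h APF, against 2.57 at 18 h BPF. On 10 h array c the markers' median deviation from their stage means was 0.88, on 12 h array b it was 0.58 and on 18 h BPF array c it was -0.45, the same sides as the lipases. Other arrays had opposite sides. Among them, the markers' median and the lipases' mean deviation were -0.11 and 0.37 on 4 h BPF array c. They were 0.34 and -0.16 on 4 h BPF array a, and 0.10 and -0.32 on 5 h array b. The part that a changing share of enterocytes has in the lipase values was not tested. Of 7 visceral muscle markers, 4 were lower at 0 h than at 18 h BPF, and Mlc2 fell by 2.47. Of the fat body markers, Fbp1 rose by 2.12 and Lsd-1 fell by 1.45 in that interval. The median late larval change was 0.11 over 5 Malpighian tubule markers, -0.16 over 5 haemocyte markers and -0.19 over 7 enteroendocrine markers. Both progenitor markers rose in it, esg by 0.95. Between 0 h and 6 h APF 1 of 4 haemocyte markers tested rose, the collagen gene Col4a1 (3.45), and 1 of 4 Malpighian tubule markers, vir-1 (0.99). Over all probes 13.3% were higher. The enteroendocrine peptide genes CCHa2 (-1.37) and Mip (-1.21), esg (-0.73) and the muscle gene Mp20 (-1.10) fell in that interval. The haemocyte markers NimC1 and Pxn were not tested from 0 h. From 2 to 6 h APF both were called higher, at 1.22 and 2.15, as was Col4a1 (2.60), against 444 of 8950 probes. vkg (1.27) was not called there. The median of the haemocyte markers was -0.36 at 3 h and 0.89 at 8 h APF. Irk2 had the widest range of the Malpighian tubule markers, from -1.87 at 2 h to 2.30 at 10 h APF. It rose by 3.59 from 6 to 8 h APF (adjusted p = 0.00377 by limma). Widest among the progenitor markers was E(spl)mbeta-HLH, with 0.60 at 4 h and -1.43 at 12 h APF. Among the salivary gland markers it was Eig71Ee, with -0.19 at 5 h and 0.42 at 8 h APF. In a log ratio against a mixture no marker reads as absent, so contamination by other tissues could not be sized.

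Relatives of the members were counted on lists chosen with these data already known. Over all probes tested, 10.1% were higher and 7.34% lower in the late larval interval. In the early prepupal interval 13.3% were higher and 11.4% lower. In the acid lipase family of mag, 3 of 6 tested genes were lower and 0 higher in the late larval interval: mag, Lip4 (-2.40) and CG2772 (-1.76). In the early prepupal interval 2 of 6 were lower, CG8093 (-4.50) and Lip3 (-1.75), neither of which is a member. In the pancreatic-type family, 4 of 16 tested genes were lower and 0 higher in the late larval interval. The fourth beside CG6296, CG6295 and CG6283 was CG10116 (-1.71). In the early prepupal interval 5 of 13 were lower, CG4267 (-1.11) and 4 members, and 2 were higher, CG10116 (0.91) and CG18641 (0.75). Only 6 of the 19 acid lipase genes with a probe and 16 of the 26 pancreatic-type ones had enough values to be tested in the late larval interval.

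Genes of glycerolipid and phospholipid synthesis moved in both directions. In the late larval interval 8 of 24 tested genes were higher and 4 lower, against 10.1% and 7.34% of all probes, with a list median of 0.07. Agpat2 and CG2201, a gene annotated as a choline or ethanolamine kinase, rose most, CG2201 by 3.35 ± 0.20 (adjusted p = 3.15e-12), and nes, a lysophospholipid acyltransferase gene, rose by 1.55. Of the family of Agpat2 itself, Agpat3 rose by 1.42 ± 0.28 (adjusted p = 3.37e-04), whereas Agpat4 fell by 3.31 ± 0.43 (adjusted p = 1.35e-06). Dgat2, which makes triacylglycerol, fell by 1.80, and Cds, which makes CDP-diacylglycerol from phosphatidic acid, fell by 1.35. mino, a glycerol-3-phosphate acyltransferase gene one reaction before Agpat2, rose by 0.94 (adjusted p = 0.00559), and Gpat4, of the same activity, fell by 0.80 (adjusted p = 0.00298).

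From 0 h to 6 h APF 4 of 25 genes of this list were higher and 9 lower, against 13.3% and 11.4% of all probes. Agpat2 and CG2201 fell again, CG2201 by 2.34 ± 0.20 (adjusted p = 9.07e-10), and Dgat2 fell by 1.81. Agpat3 fell by 0.79 (adjusted p = 0.0364), mino by 1.12 (adjusted p = 8.66e-04) and Gpat4 by 0.65 (adjusted p = 0.0125). Higher were mdy (1.13), the other diacylglycerol acyltransferase gene, Pisd (0.98), which makes phosphatidylethanolamine from phosphatidylserine, and eas (0.82), an ethanolamine kinase gene. The list median was 0.06. CG2201, mino and Agpat3 thus rose in the first interval and fell in the second, as Agpat2 did. So did bbc (1.51 and -1.18), CG33116 (0.85 and -0.94) and nes (1.55 and -0.70), all called. Among the genes of this list called higher in the first interval, only eas (1.22) was not called lower in the second. Both intervals use the same 0 h arrays, with opposite sign, so scatter at 0 h by itself pushes genes towards a rise followed by a fall. The share of all probes with that pattern is not given here, so it does not set this list apart.

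**Figure D5:**
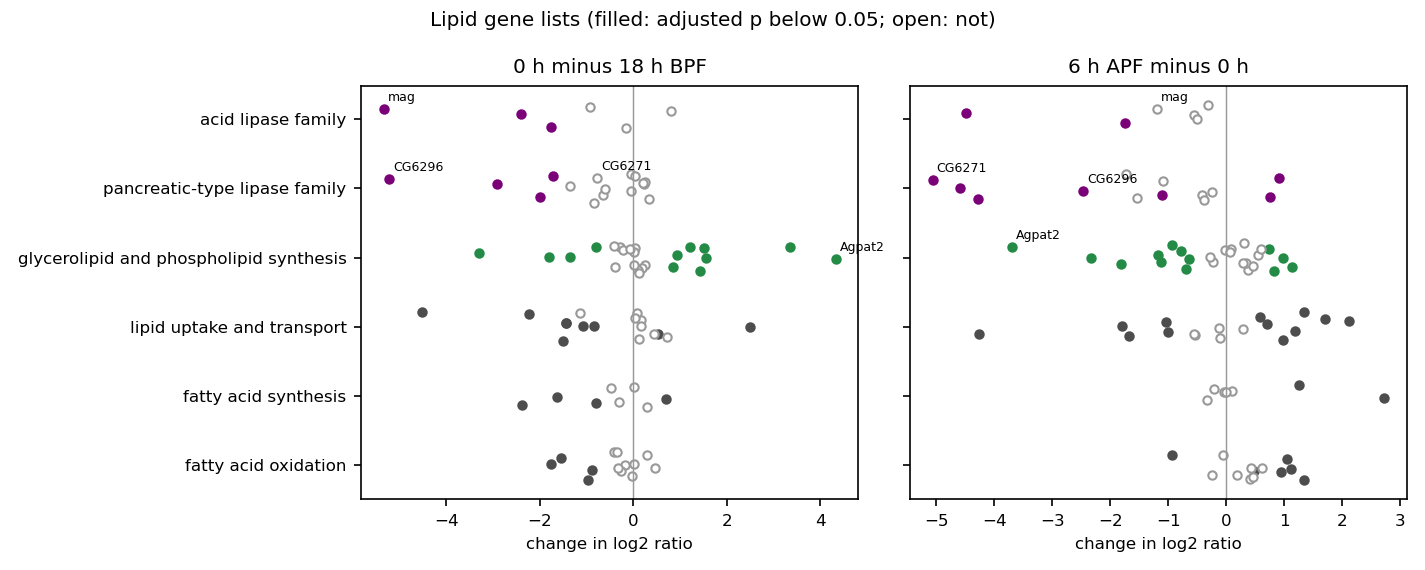
Points are genes of 6 lipid lists, with the change in log2 ratio for 0 h minus 18 h BPF on the left and 6 h APF minus 0 h on the right. Filled points are called at an adjusted p below 0.05, and vertical jitter only separates points. The lipase families hold most of their filled points left of 0, and many of these points are the members themselves. Of the other pancreatic-type genes called, CG10116 lies left of 0 in the left plot. In the right plot CG4267 lies left of 0, and CG10116 and CG18641 lie right of it. Synthesis genes lie on both sides, with Agpat2 at 4.33 and -3.70.

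Genes that take fat up and carry it behaved unevenly. Of 17 tested in the late larval interval 7 were lower and 2 higher, against 7.34% and 10.1% of all probes. Npc2d, of the sterol-binding NPC2 family, fell by 4.53, while its relative Npc2a rose by 2.51. Between 0 h and 6 h APF 7 of 17 were higher and 5 lower, against 13.3% and 11.4% of all probes. Fatp3, of the fatty acid transport protein family, fell by 4.27, while Fatp1 rose by 1.35 and fabp, a fatty acid binding protein gene, by 2.12. Fatty acid synthesis had 1 of 8 higher and 3 lower in the late larval interval. Men, malic enzyme, fell by 2.37 there and rose by 2.73 from 0 h to 6 h APF, the reverse of Agpat2, and Desat1, a desaturase gene, fell by 1.63 in the late larval interval. From 0 h to 6 h APF 2 of 7 synthesis genes were higher and 0 lower.

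Fatty acid oxidation had 4 of 13 lower and 0 higher in the late larval interval, and 5 of 13 higher and 1 lower in the early prepupal interval. Over all probes 10.1% were higher and 7.34% lower in the late larval interval, and 13.3% and 11.4% in the early prepupal interval. Counts of 1 in the short lists of this paragraph lay near those shares. Among lipid droplet and intracellular lipase genes, 1 of 11 was higher and 2 lower in the late larval interval, and 3 of 10 higher and 3 lower in the early prepupal interval. bmm, the triacylglycerol lipase of lipid droplets, fell by 1.77 from 0 h to 6 h APF. Of the regulators, 2 of 9 were lower in the late larval and 1 of 8 higher in the early prepupal interval. sug, a transcription factor of sugar-induced gene expression, fell by 3.03 and then rose by 2.82. Hr96, the nuclear receptor known to act on mag, had changes of 0.19 ± 0.33 (adjusted p = 0.79) and -0.60 ± 0.33 (adjusted p = 0.205) that did not pass.

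Stage patterns most like those of the members were ranked over the 11 stage means among 3484 named probes that passed the F test. Values are correlations that describe these means, and probes of an array share its hybridization. Closest to mag were Cyp4d2 (r = 0.992) and Cyp6w1 (0.990), both cytochrome P450 genes, with CG9682 (0.990) and CG3819 (0.988). Closest to the mean of the 6 cluster probes were Jon99Cii (0.993), a digestive serine protease gene that is also among the enterocyte markers above, CG8661 (0.993), CG7714 (0.991) and CG33307 (0.991). Closest to Agpat2 were Orct (0.976), an organic cation transporter gene, Pi4KIIalpha (0.975), a phosphatidylinositol 4-kinase gene, CIAPIN1 (0.975) and CG15012 (0.973). Most opposed to Agpat2 were CG9331 (-0.987) and colt (-0.984), a mitochondrial carrier gene of the carnitine transporter family. Between lipases the stage means correlated at 0.841 to 0.995, and between a lipase and Agpat2 at 0.0132 to 0.413.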

How the data were processed

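Values are log2 ratios deposited by the authors, 1 per probe and array, for 33 two-colour arrays, with RNA amplified by in vitro transcription per the labels. How background was handled and how arrays were scaled is not given in the sources used here, nor are base and direction. Read as log2 of stage over reference, small ratios were whole multiples of a step (100% within 0.05 of a step), and the log2 of the mean ratio over the 10 pooled stages had an SD of 0.117, against 0.509 with the sign reversed (7257 probes). Arrays held 7006 to 13966 values, with medians between -0.03 and 0.12 and within-stage correlations of 0.594 to 0.859, and were not re-centred. Missing values (18 h BPF array b for mag, CG6271, CG6295 and the second CG6283 probe, and 2 h APF array c for CG6277) leave n = 2. The lowest member ratio was 13 steps, and on 7 arrays members shared an identical value. The number of arrays limits the precision.

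Gene names came from the platform annotation and RefSeq's gene table, used for names and gene order. A linear model of 11 stage means over all 33 arrays was fitted in R 4.3.3 with statmod 1.5.0 and limma 3.58.1 (eBayes, Benjamini-Hochberg over all probes with at least 2 values in each stage compared, threshold 0.05) and tested on simulated data. It was repeated after subtracting Agpat2 or mag on each array. Matplotlib 3.10.9, NumPy 2.4.6 and pandas 2.3.3 ran under Python 3.11.15. In lists a gene stands for its probe with most values.

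Members, lists and tests were chosen with earlier results of these data known. Besides the members, named genes were the 4 best correlated with mag, the cluster mean and Agpat2, the 2 most opposed to Agpat2, up to 3 called genes per list and direction, and the marker with the widest range per list. Cluster neighbours, Agpat3, mino, Gpat4, bbc, CG33116, CG4267, Hr96, GATAe, nub, NimC1, Pxn and vkg were named outside that rule, after their values were seen. So were CG10116 and eas in the late larval interval, and nes and Vha100-4 in the early prepupal interval. Alternatives were median centring, quantile normalization, 2 other filters on missing values, a variance trend with robust moderation, the replicate letter as a block and leaving out each array. Leaving out the arrays of letter a and not moderating variances were added after seeing the data. Promoters were not analysed here.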

Additional observations from a re-analysis of the deposited data

How the results depend on the processing

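Of 833 member changes and differences recomputed under other settings, 770 kept direction and side of the threshold, 34 lost and 25 gained a call and 4 reversed. Leaving out single arrays kept 3643 of 3758. Reversals were of uncalled differences: under quantile normalization the early prepupal changes of mag (0.0920) and of the first CG6283 probe minus Agpat2 (0.0891), and CG6296 minus mag in the late larval interval (0.0805, and -0.32 to 0.34 without single arrays, 0.34 without 0 h array a). CG6295 minus mag, early prepupal, was 0.10 without the arrays of letter a and -1.35 to 0.0549 without single arrays, above 0 without 6 h array a. mag from 0 h to 2 h APF ran from -0.64 to 0.0275, above 0 without 2 h array c. The causes were not tested.

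Counts of called probes moved as follows. With only probes measured on all arrays, 3 member probes were left to test, and the calls were 3 over the course, 3 late larval, 3 early prepupal, 3 over the whole interval, 2 from 18 h to 4 h BPF and 1 from 0 h to 2 h APF. Of the 2 lipases left, 2 differed from Agpat2 late larval, 2 from 2 to 6 h, 2 from 18 h to 4 h BPF, 2 from 4 h BPF to 0 h and 0 early prepupal. Without the arrays of letter a the calls were 3 over the course, 3 late larval, 4 over the whole interval, 6 from 4 h BPF to 0 h and 2 from 0 h to 2 h APF, and 3 lipases differed from Agpat2 late larval and 3 from 18 h to 4 h BPF. Fewer probes could be tested there too, since mag, CG6271, CG6295 and the second CG6283 probe keep 1 value at 18 h BPF. Differences from mag fell to 0 in both steps from 4 h BPF. From 4 h BPF to 0 h, median centring gave 5 calls, quantile normalization 7 and unmoderated variances 1. Of the 10171 probes tested in that step, median centring called 306 and quantile normalization 329, against 315 in the main fit. For the other counts in this section, calls over all probes are not given, so these counts do not set the members apart from other probes. Calls over all probes moved with the setting too. In the late larval interval quantile normalization called 1527 of 10204 probes, against 1777 in the main fit. Quantile normalization also gave 0 calls from 6 to 8 h APF (Agpat2 -1.45, adjusted p = 0.128), and 6, 5 and 5 probes unlike mag in the early prepupal interval and in the steps from 4 h BPF to 0 h and 0 h to 2 h APF. Unmoderated variances gave 2 lipases unlike Agpat2 early prepupal, and 0 unlike mag in both of those steps, where the variance trend gave 1 from 4 h BPF to 0 h.

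Leaving out single arrays gave 4 to 8 calls over the course, 2 to 5 late larval, 5 to 8 early prepupal, 0 to 1 late prepupal, 3 to 8 over the whole interval and 1 to 2 from 2 to 6 h. Single steps gave 1 to 3 calls (18 h to 4 h BPF), 1 to 6 (4 h BPF to 0 h), 2 to 4 (0 h to 2 h APF), 1 (6 to 8 h) and 1 (10 to 12 h). Unlike Agpat2 were 3 to 7 (late larval), 3 to 6 (early prepupal), 5 to 7 (2 to 6 h), 3 to 7 (18 h to 4 h BPF) and 7 (4 h BPF to 0 h). Unlike mag were 5, 3, 2 to 4, 0 to 4 and 0 to 3 in the late larval and early prepupal intervals and the 3 steps from 18 h BPF. The lowest counts that involve 18 h BPF come from arrays a and c of that stage, without which only 4 member probes could be tested.

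The main fit did not use the letters of the arrays, although deviations from the stage means followed them in part. Of 33 arrays, 32 were closer to their own letter, a hint from the data only. Same-letter pairs had a median r of 0.104, with 86 of 165 above 0.1, and other-letter pairs had a median r of -0.051. Arrays of letter a held fewer values, 8948.6 on average against 11998 (b) and 12486 (c). What the letters stand for was not tested. With the letter as a replicate block, 2 member probes were called from 18 h to 4 h BPF in place of 1, 7 early prepupal and 6 lipases unlike Agpat2 early prepupal. The block moved no other member count by more than 1.5 times.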
